A study of Mus musculus with 12 samples.

Results

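Lgals1, Anxa2 and Vim, the genes of galectin-1, annexin A2 and vimentin, were followed in liver RNA of mice that lack PXR, the pregnane X receptor, a nuclear receptor that responds to foreign compounds. The 3 genes were chosen by symbol from the 336 rows of a deposited comparison of high-fat diet (HFD) against chow, with earlier results of these data known and as genes often used as markers of mesenchymal cells or injured hepatocytes. The rows themselves had been selected on that comparison. All values of HFD against chow below are therefore a description of the selected genes, with no test of their own.

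Liver RNA was sequenced from 12 C57BL/6N mice labelled PXR deficient, with 4 groups of 3 animals. Feeding with regular chow or HFD began at 6 weeks of age and lasted 18 weeks. The groups used here are chow (mice 670, 695 and 707) and HFD (mice 659, 669 and 696), and neither has a treatment in the labels. The remaining HFD-fed mice received 30% DMSO in corn oil or PCN, a PXR ligand, at 50 mg/kg, intraperitoneally once a day for 4 days. Their table holds 33 rows and 0 of the 3 genes, so injected mice were not analysed here. PXR deficiency is common to all groups, and there was no PXR-competent liver to set beside it. The labels give neither the sex nor the way the receptor was lost.

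Galectin-1 is a small secreted lectin that binds galactose-containing sugars on cell surfaces and matrix, and it is abundant in mesenchymal cells. Annexin A2 binds membrane phospholipids when calcium is present. As a complex with S100A10 it holds plasminogen and its activator at the cell surface, where plasmin is made. Vimentin builds the intermediate filaments of fibroblasts, stellate cells, endothelium and leukocytes, while healthy hepatocytes rely on keratins. In liver, stellate cells, macrophages and other non-parenchymal cells are the usual sources of all 3 transcripts, and injured hepatocytes can gain annexin A2.

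On GRCm38, all on the plus strand, Lgals1 (ENSMUSG00000068220) occupies chromosome 15 from 78926725 to 78930465, Anxa2 (ENSMUSG00000032231) chromosome 9 from 69453620 to 69491795, and Vim (ENSMUSG00000026728) chromosome 2 from 13573927 to 13582826. These positions are identical in the deposited table and GENCODE M21. No annotated gene overlaps Lgals1 or Vim. Within Anxa2 lie the microRNA gene Mir3109, which shares 0 exonic bases with it, and the antisense gene Gm16144, which shares 98. Whether reads were counted by strand is not given in the sources used here, so reads over those 98 bases cannot be assigned. Among GENCODE transcripts of other genes, the Anxa2 mRNA matched 0 over at least 100 bases at 80% identity or more. Lgals1 matched 1 at that limit, the processed pseudogene Gm8275, over 426 bases at 81.0% identity. Vim matched 4 keratin genes, over at most 120 bases.

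Upstream sequence is shown for Anxa2, one of the pair with the larger increase, and beside it the matching stretch of Vim. No upstream sequence was held for Lgals1, the other of that pair. RefSeq windows (GRCm38.p6), running from 250 bases before to 50 after the RefSeq start, were held for both of these genes. Motifs were searched on both strands: the TATA box TATAAA, the GC box GGGCGG, the AP-1 site TGANTCA and the CCAAT box CCAAT. The line below gives the 187 bases directly before the first GENCODE base of Anxa2, at chr9:69453433-69453619 on the plus strand, 5′ to 3′, and capitals mark a GC box and an AP-1 site.

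Anxa2: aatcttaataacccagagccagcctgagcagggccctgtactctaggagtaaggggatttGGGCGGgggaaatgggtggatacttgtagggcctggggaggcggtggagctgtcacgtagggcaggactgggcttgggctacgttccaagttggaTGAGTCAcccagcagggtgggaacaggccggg

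The AP-1 match begins 95 bases before the RefSeq start, and 7.81% of the 32851 windows of this length in the table hold such a match. GC boxes occur in 35.7% of windows. Anxa2 had 3 of them, all on the plus strand, with 1 just before its TATA box, and no motif matches overlapped. The TATA box, found in 13.6% of windows, was present in both genes. Each is printed below within 30 bases, at chr9:69453654-69453683 for Anxa2 and chr2:13574267-13574296 for Vim, plus strand, with motif matches in capitals.

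Anxa2: ggatgGGGCGGgTATAAAagccccacccag

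Vim: tcctaacagtgtTATAAAagcagcgccctt

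The TATA match begins 17 bases before the RefSeq start of Anxa2 and 32 bases before that of Vim. GENCODE places the first base of Anxa2 63 bases and that of Vim 384 bases further upstream, so both matches lie inside the longest annotated gene span. The Vim window held 2 CCAAT boxes, as 37.4% of windows hold at least 1, and no GC box or AP-1 letters. G and C made up 63.7% of the Anxa2 window and 59.3% of the Vim window, against a median of 52.7% over all windows. These matches describe letters, not occupied sites.

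Lgals1 and Anxa2 were each more than 4-fold higher on HFD, and Vim was 1.63-fold higher. Values are normalized counts, that is raw counts divided by the authors' size factors, which were recovered from their column of means and ran from 0.829 to 1.14. Depth is known only for the rows held, whose raw counts summed to between 547431 and 920106 per mouse. Bulk liver RNA cannot tell apart more cells of a type and more RNA per cell. The labels name 6 separate animals and no batch or date.

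For Lgals1 the chow mice had 277 (mouse 670), 549 (mouse 695) and 350 (mouse 707) normalized counts. The HFD mice had 2040 (mouse 659), 1633 (mouse 669) and 1812 (mouse 696). The groups did not overlap, which held for 334 of the 336 selected rows. The lowest HFD mouse stood 2.97-fold above the highest chow mouse. Group means were 392 ± 141 and 1828 ± 204 (SD, n = 3 each), a ratio of 4.67 and a log2 ratio of 2.22 (SE 0.31). Chow mouse 695 was the high value of its group. Without it the ratio was 5.84, and over the 6 ways of leaving out 1 mouse it ranged from 4.07 to 5.84.

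Anxa2 was less abundant. Chow mice had 116 (mouse 670), 102 (mouse 695) and 86.9 (mouse 707) normalized counts. HFD mice had 585 (mouse 659), 326 (mouse 669) and 452 (mouse 696). Again the groups did not overlap, with a gap of 2.81-fold between the nearest mice. Here the spread lay in the HFD group, in which mouse 659 was highest and mouse 669 lowest. The means were 102 ± 14.7 and 454 ± 129 (SD, n = 3 each), a ratio of 4.47 and a log2 ratio of 2.16 (SE 0.27).

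Vim was the gene with the smallest difference. Chow mice had 262 (mouse 670), 208 (mouse 695) and 218 (mouse 707) normalized counts. HFD mice had 416 (mouse 659), 398 (mouse 669) and 308 (mouse 696). The nearest mice of the groups, chow 670 and HFD 696, differed by 1.18-fold. Group means were 230 ± 28.4 and 374 ± 57.9 (SD, n = 3 each), a log2 ratio of 0.70 (SE 0.17). Scaling by other size factors moved the 3 genes by similar log2 amounts, which weighed most on the small difference of Vim. With size factors computed from the listed rows alone, which takes the typical listed gene as unchanged, its log2 ratio was 0.06 (TMM) or 0.03 (DESeq2). Those factors moved the median log2 ratio of all rows by -0.64 and -0.66, so the Vim difference was about the size of that shift, whereas Lgals1 had 1.58 by both and Anxa2 1.51 and 1.5.

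**Figure D1:**
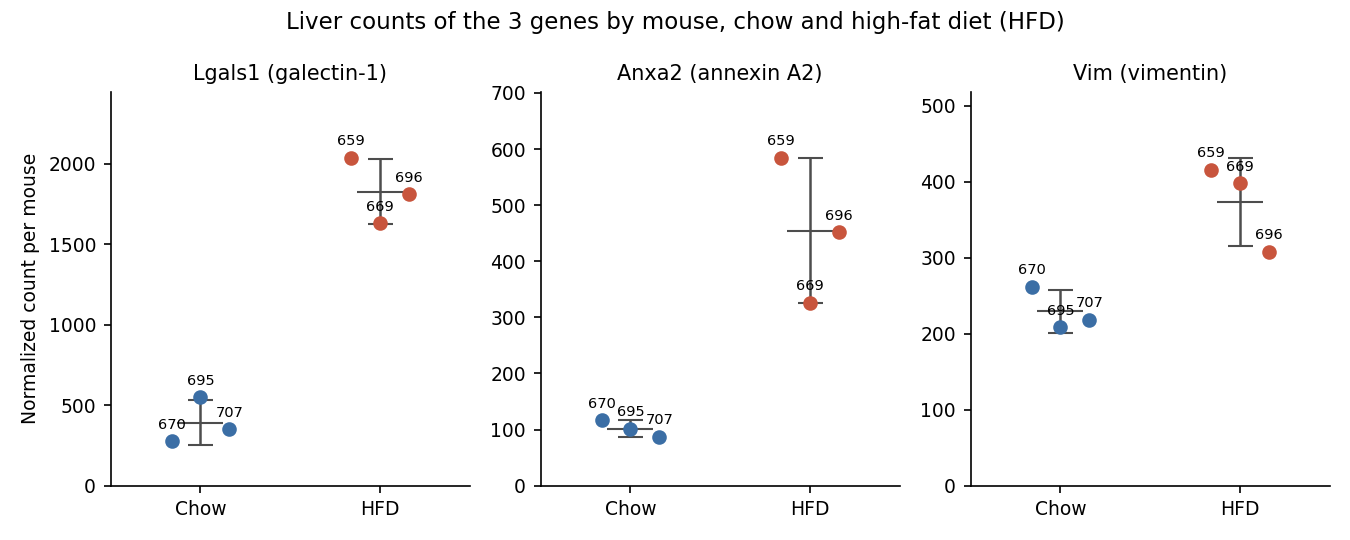
Normalized count per mouse (vertical axes, from 0) in the 3 chow and 3 HFD mice for Lgals1, Anxa2 and Vim; points carry mouse numbers and bars give mean ± SD. The groups are wide apart for Lgals1 and Anxa2, while for Vim the nearest mice stand at 262 and 308.

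The observed spread between mice was above that of counting alone in both groups for each gene. For Lgals1 the coefficient of variation was 36.0% in chow mice and 11.1% in HFD mice, where counting alone would give 5.15% and 2.28%. The reverse held for Anxa2, with 14.4% in chow and 28.5% in HFD mice against 10.1% and 4.54% from counting. For Vim it was 12.4% and 15.5%, against 6.75% and 5.06%. With 3 mice per group these spreads are themselves rough.

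Levels of the 3 genes can be compared only per length. Divided by the length of the first-named GENCODE transcript (800 bases for Lgals1, 1447 for Anxa2 and 2193 for Vim), the order in chow mice was Lgals1, Vim, Anxa2, at 490 ± 176, 105 ± 12.97 and 70.2 ± 10.2 normalized counts per kb (SD, n = 3 each). On HFD the order was Lgals1, Anxa2, Vim, at 2285 ± 255, 314 ± 89.3 and 171 ± 26.4. Anxa2 and Vim thus changed places. Using the length of all annotated exons, which for Anxa2 and Vim includes retained introns, gave the same order in both groups.

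The values that put the genes in the table were the authors' own. For Lgals1 the authors' deposited table gives a log2 fold change of 1.88 (SE 0.21, adjusted p = 3.14e-16), with 1.8 for Anxa2 (SE 0.21, adjusted p = 6.03e-14) and 0.63 for Vim (SE 0.18, adjusted p = 0.03403). The deposited values are smaller than the ratios of means given here. The relation between p and adjusted p places Lgals1 at rank 5, Anxa2 at rank 10 and Vim at rank 364 of about 24989 genes tested by the authors. Leaving aside 1 listed row whose p and adjusted p implied a far higher rank number, the last listed gene ranked 404. The smallest listed absolute log2 fold change was 0.6, so Vim stood close to both limits of the table. Of all genes tested, 215 were listed as higher (0.86%) and 121 as lower (0.484%). All 3 members were among the higher rows, which follows from how they were chosen. By ratio of group means they ranked 32 (Lgals1), 34 (Anxa2) and 208 (Vim) of the 215, whose median ratio was 2.30.

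Ratios between the genes within a mouse need no size factor. Lgals1 counts were 1.06 (mouse 670), 2.64 (mouse 695) and 1.60 (mouse 707) times the Vim counts in chow mice. In HFD mice they were 4.91 (mouse 659), 4.10 (mouse 669) and 5.89 (mouse 696) times the Vim counts. All HFD mice lay above all chow mice, and the mean ratio was 2.81-fold higher on HFD (1.76 ± 0.802 against 4.97 ± 0.896, SD, n = 3 each). How many other pairs of rows separate by diet was not counted.

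Anxa2 behaved the same way against Vim. Its counts were 0.444, 0.488 and 0.398 of the Vim counts in chow mice 670, 695 and 707. In HFD mice 659, 669 and 696 they were 1.41, 0.819 and 1.47 times as many. The mean ratio was 2.78-fold higher on HFD, at 0.443 ± 0.0453 in chow and 1.23 ± 0.359 in HFD mice (SD, n = 3 each).

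Lgals1 against Anxa2 showed no such separation. The mean ratio was 3.93 ± 1.51 on chow and 4.17 ± 0.771 on HFD (SD, n = 3 each), and the values of the groups interleaved: 2.38, 5.40 and 4.03 in mice 670, 695 and 707, and 3.49, 5.01 and 4.01 in mice 659, 669 and 696. Leaving out single mice moved its log2 ratio between -0.18 and 0.38, across 0. No test was made of any of these ratios, since both genes of each pair come from the contrast that chose them.

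**Figure D2:**
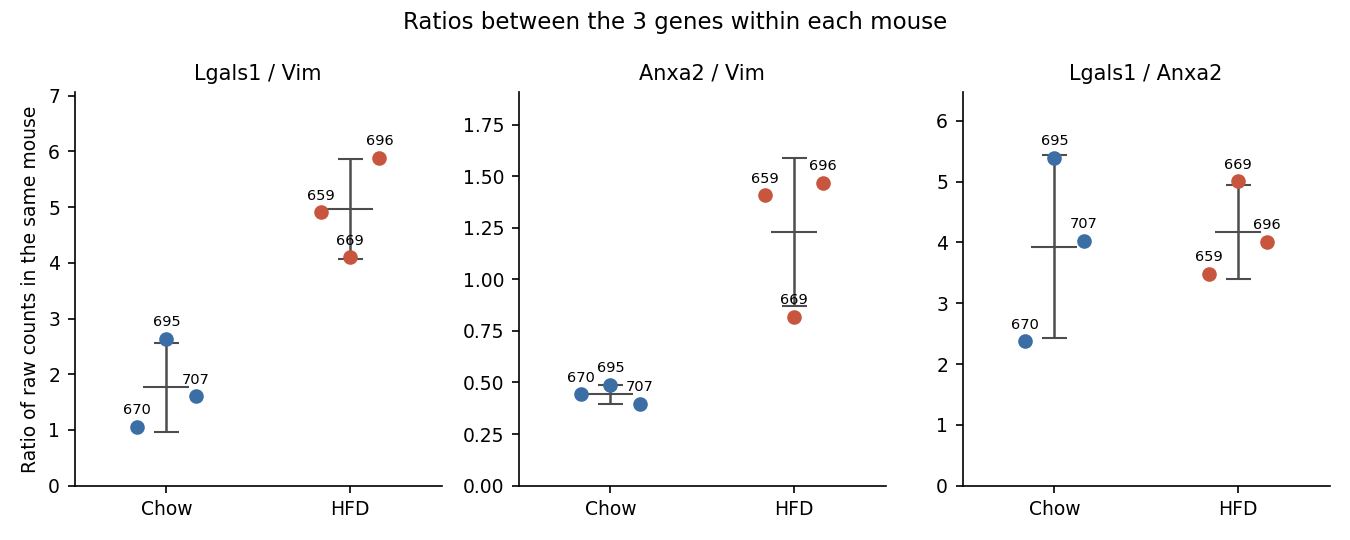
Ratio of raw counts of 2 genes in the same mouse (vertical axes, from 0) for chow and HFD mice; points carry mouse numbers and bars give mean ± SD. Both ratios over Vim are higher in every HFD mouse, and the Lgals1 to Anxa2 ratio lies between 2.38 and 5.40 with the groups mixed.

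Among the 3 HFD mice, Lgals1 and Anxa2 shared the order 659, 696, 669 from high to low, as did 54 of the 215 higher rows. Vim had the order 659, 669, 696, as did 42. Other listed genes were then ranked by how closely they followed each member over the 6 mice. The measure was the root mean square difference in log2(normalized count + 1) after subtracting each gene's chow mean, over the 280 rows whose mean reached 50 and whose symbol is not that of a predicted gene. It is driven mainly by the size of the diet difference and is a description only.

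Nearest to Lgals1 were Fbf1, a gene of the centriole (0.26), Osbpl3, of the oxysterol-binding protein family (0.34), Anxa2 (0.39), the fibrillar collagen gene Col3a1 (0.40) and the glutathione transferase gene Gstm3 (0.45). Fbf1 had 106, 194 and 126 normalized counts in chow mice 670, 695 and 707, with 695 high as in Lgals1, and 720, 545 and 1019 in HFD mice 659, 669 and 696.

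Among the 5 nearest to Anxa2 were Mogat1, a monoacylglycerol acyltransferase gene (0.24), the signalling adaptor gene Stap1 (0.32), the thrombospondin gene Thbs1 (0.32) and the fibulin gene Fbln2 (0.36), with Lgals1 in place 7. Mogat1 had 28.3, 19.2 and 13.3 normalized counts in chow mice 670, 695 and 707 and 148, 65.7 and 102 in HFD mice 659, 669 and 696. Its order within each group was that of Anxa2.

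Nearest to Vim were the interferon-induced GTPase gene Gbp7 (0.092), Ahnak (0.095), Sparc (0.10), Slc44a3, of the choline transporter-like family (0.12), and Tgfbi, which encodes a matrix protein (0.15). Lgals1 and Anxa2 were far from it, in places 205 and 167 of 279 other rows (1.19 and 1.05). Ahnak, which encodes a giant scaffold known to bind the annexin A2 and S100A10 complex, went from 1220 ± 50.5 to 1918 ± 327 normalized counts (SD, n = 3 each), a ratio of 1.57. With DESeq2 factors from the listed rows its log2 ratio turned to -0.02.

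**Figure D3:**
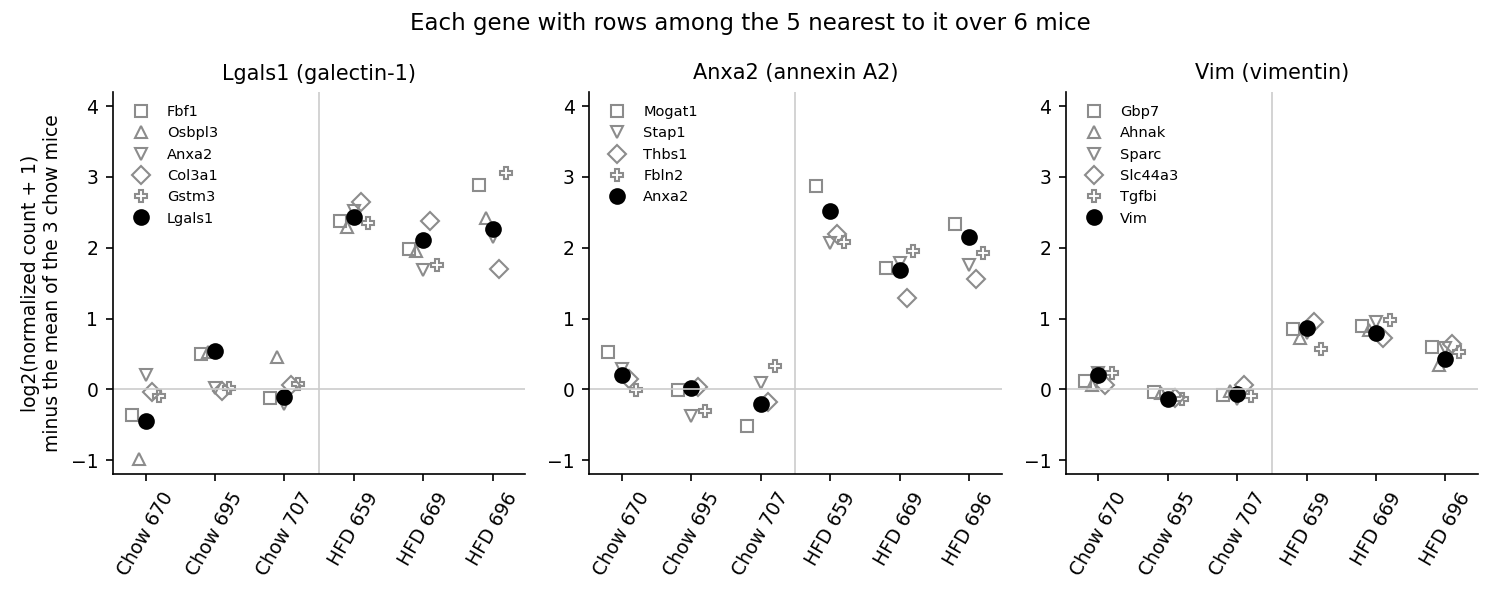
log2(normalized count + 1) minus the mean of the 3 chow mice (vertical axis) in each of 6 mice (horizontal axis) for each member (filled circles) and rows among its 5 nearest (open symbols). The Lgals1 and Anxa2 sets reach about the same height on HFD, and the Vim set stays lower and tighter.

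The relatives of the members among the rows were few, and they are counted by the authors' listing (0.86% of all tested genes higher, 0.484% lower). A list that holds a member counts it, though Lgals1, Anxa2 and Vim were chosen from the higher rows. Of 10 genes on the galectin list, which holds galectins and the galectin-binding protein Lgals3bp, 1 was listed by the authors, Lgals1 itself. The galectin-like gene Lgalsl, which is outside that list and was named after its values were seen, was lower: 511 ± 21.8 in chow against 304 ± 84.1 in HFD mice (SD, n = 3 each), 1.68-fold. Of 12 annexin genes, 2 were listed, both higher. The second was Anxa5, which encodes a phosphatidylserine-binding annexin. It had 2012, 1556 and 1534 normalized counts in chow mice 670, 695 and 707 and 3598, 2308 and 3289 in HFD mice 659, 669 and 696. Its HFD order was that of Anxa2, at a ratio of 1.80. Of 14 S100 genes, the partner S100a10 included, 0 were listed.

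Plasminogen activation is the process annexin A2 is known for. On that list, Serpine2, the gene of the protease inhibitor protease nexin-1, was listed as lower. It had 284, 469 and 315 normalized counts in chow mice 670, 695 and 707 and 119, 219 and 113 in HFD mice 659, 669 and 696. The groups did not overlap, as in 334 of the 336 rows. The means were 356 ± 99.2 and 150 ± 59.1 (SD, n = 3 each), 2.37-fold lower on HFD.

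Of 17 intermediate filament and linker genes, 1 was listed, Vim; the hepatocyte keratin genes Krt8 and Krt18 were on that list and not among the rows held. Of 24 actin cytoskeleton genes of mesenchymal cells 0 were listed. Of 18 genes of glycoproteins that galectin-1 binds, 1 was listed, and it was lower: Itga5, an integrin subunit of the fibronectin receptor, at 364 ± 56.3 in chow and 189 ± 33.8 in HFD mice (SD, n = 3 each).

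Of 16 genes used to describe epithelial to mesenchymal transition, 6 were listed, 3 in each direction. The 3 higher ones include Vim, which was chosen from the higher rows, so the even split is a description. Higher were Vim, the matrix protease gene Mmp2 (25.3 ± 4.44 to 63.1 ± 20.6) and the collagen-binding protein gene Sparc (568 ± 80.9 to 971 ± 121, SD, n = 3 each). Lower were the genes of the junction proteins E-cadherin (Cdh1, 344 ± 146 to 142 ± 66.1), occludin (Ocln, 298 ± 1.18 to 179 ± 23.5) and claudin-1 (Cldn1, 733 ± 291 to 323 ± 91.1, SD, n = 3 each). For Cdh1 the groups overlapped, since chow mouse 695 at 205 was below HFD mouse 696 at 214.

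**Figure D4:**
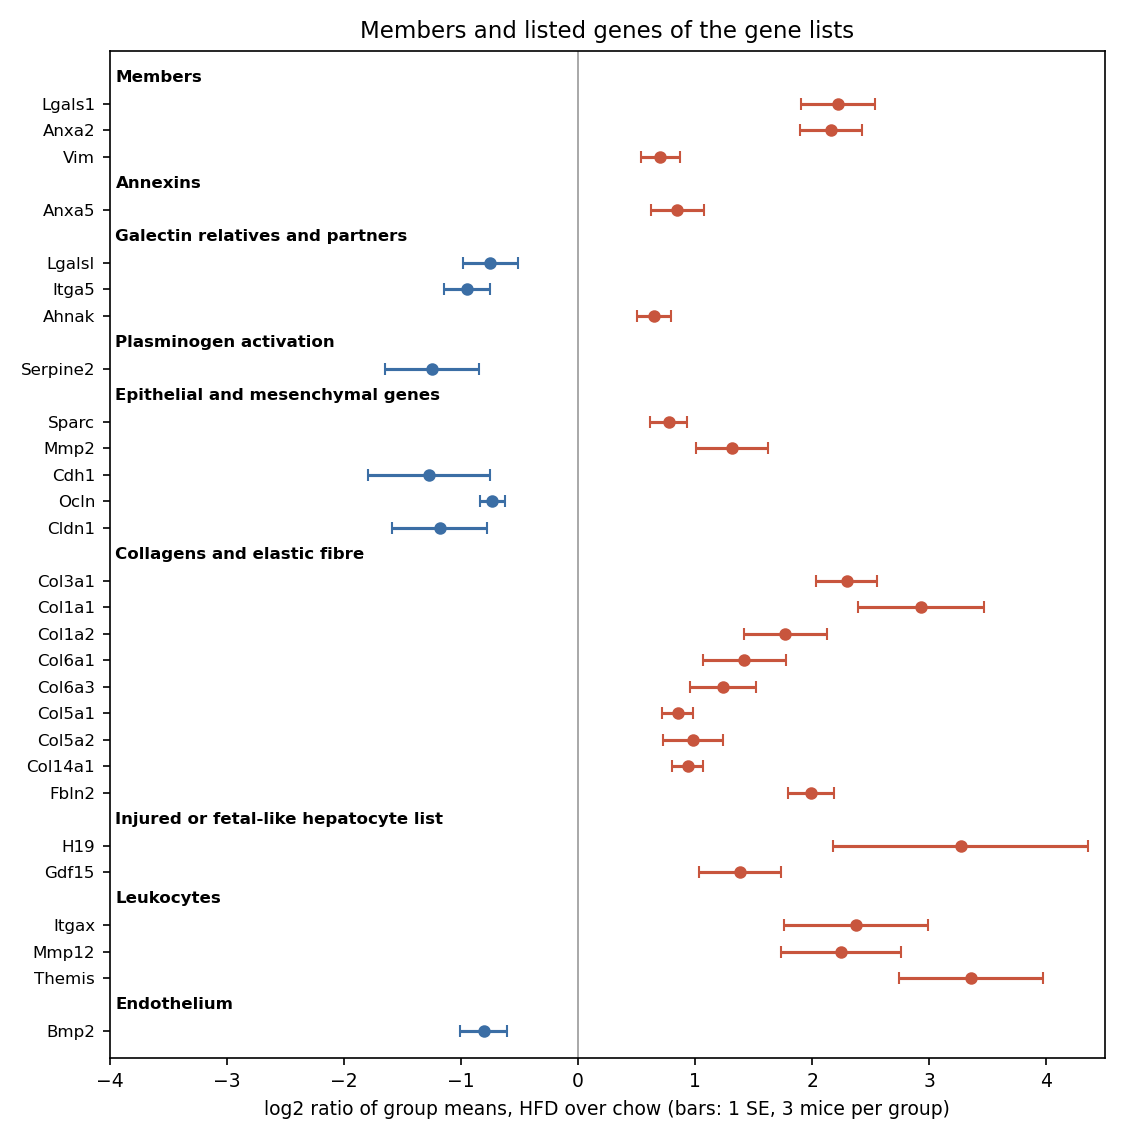
log2 ratio of group means, HFD over chow (horizontal axis), for the members and other listed genes, with bars of 1 SE from 3 mice per group. Headings differ in part from the gene lists. Ahnak and Lgalsl are on no list, and Ahnak is a partner of annexin A2, not of galectin-1. Fbln2 is from the portal fibroblast and mesothelial list. Lgals1 and Anxa2 stand near Col3a1, Fbln2, Mmp12 and Itgax, and Vim stands near Sparc, Ahnak, Col5a1 and Anxa5.

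Lists of markers of other cell types were counted in the same way, and most of their genes were not among the rows held. Of 27 stellate cell and fibroblast markers, 9 were listed, all higher. These 9 were Sparc and collagen genes. All lists were chosen with earlier results of these data known, so their counts are a description. The summed normalized counts of these 9 ranged from 2837 to 2964 in chow mice and from 5403 to 7858 in HFD mice. Such sums, here and for the lists below, hold only genes already listed as higher. Their separation by diet follows from that selection and is not a level of the whole list. In HFD mice 659, 669 and 696 the sums were 7858, 7257 and 5403, the order of Vim and of 42 of the 215 higher rows. The 3 of these genes with the smallest deposited adjusted p were Col3a1 (ratio 4.91), Col1a1 (7.61) and Col1a2 (3.41). The defining stellate genes Acta2, Des, Lrat and Pdgfrb were not among the rows held. Portal fibroblast and mesothelial markers gave 1 of 14, Fbln2, with a ratio of 3.98.

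Among macrophage markers 2 of 22 were listed, both higher at low counts: Itgax, an integrin gene of dendritic cells and recruited macrophages (7.33 ± 5.17 to 37.9 ± 8.27), and the elastase gene Mmp12 (10.8 ± 2.74 to 51.4 ± 29.0, SD, n = 3 each). The sum of this pair ranged from 12.5 to 25.3 in chow mice and was 119, 77.5 and 71.2 in HFD mice 659, 669 and 696. Its genes differed in order. In those HFD mice Itgax had 37.1, 30.1 and 46.6 normalized counts, and Mmp12 had 82.2, 47.4 and 24.6. The ratio for Itgax was 5.18, or 8.71 without chow mouse 707. Among lymphocyte markers 1 of 19 was listed, the T cell gene Themis, with a ratio of 10.3, or 17.3 without chow mouse 670. It had 372, 306 and 315 normalized counts in HFD mice 659, 669 and 696, with mice 669 and 696 close together. That order was the one Lgals1 and Anxa2 shared with 54 of the 215 higher rows. Endothelial markers gave 1 of 14, Bmp2, which was 1.75-fold lower. Cholangiocyte, neutrophil, and adipocyte and smooth muscle lists had 0 of 12, 0 of 10 and 0 of 9.

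Of 32 genes of injured or fetal-like hepatocytes, 3 were listed, all higher. Besides Anxa5 these were Gdf15, a stress-induced cytokine gene (45.1 ± 14.6 to 117.9 ± 31.8, ratio 2.61), and the fetal noncoding RNA gene H19 (5.0 ± 6.29 to 48.2 ± 17.0, SD, n = 3 each). H19 had 0 counts in chow mouse 695, and its ratio of 9.64 became 32.9 without chow mouse 707. The summed counts of the 3 genes, mostly from Anxa5, were 3804, 2482 and 3406 in HFD mice 659, 669 and 696. Mouse 669 was lowest in this sum, as in Anxa5, whereas Gdf15 and H19 were lowest in mouse 696, at 88.8 and 29.0. Of 25 hepatocyte identity genes 0 were listed. The part of any of these cell types in the Lgals1, Anxa2 and Vim values was not tested.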

How the data were processed

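The authors deposited 2 tables (diet, PCN) of raw read counts per gene and mouse; per the file headers they also give p-values, adjusted p-values, a mean and a log2 fold change with its standard error. The submitters' processing notes name HISAT2, HTSeq, DESeq2 and GRCm38 (mm10); which step each did, its version and its strand setting are not given. Both tables hold selected genes only, and 69 genes ranked above the last listed one are not among the diet rows held. That count leaves aside 1 diet row whose implied rank lay beyond the others. Size factors were solved from the authors' mean column (largest gap 0.0051 counts). All 336 IDs were found in GENCODE M21, 322 with identical coordinates.

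The members and lists were chosen with earlier results of these data known. Ratios are of group means of normalized counts over 3 mice per group, with no test. As alternatives, edgeR 4.0.16 and DESeq2 1.42.0 (R 4.3.3) were fitted to the deposited rows, for log2 fold changes only, and the edgeR fit was checked on simulated data. Named were the members, all listed genes of the pathway lists and the injured hepatocyte list, up to 3 of each other cell type list by adjusted p, and the 5 nearest rows to each member. One named gene, and the count of its list, is not reported here. Lgalsl was named after its values were seen. The spread between these mice is the error given. Python 3.11.15 was used. Lists covered 279 genes in 18 lists.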

Additional observations from a re-analysis of the deposited data

How the results depend on the processing

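For Lgals1, Anxa2 and Vim, log2 ratios moved by less than 1 SD of the replicates with raw counts, group medians, mean log2 values, edgeR with and without its filter, and DESeq2 fold changes. With factors from the listed rows alone they moved by more, to 1.58, 1.51 and 0.060 (TMM) and 1.58, 1.5 and 0.034 (DESeq2), from 2.22, 2.16 and 0.70; these factors are built from genes selected for having changed. Leaving out 1 mouse gave 2.02 to 2.55 for Lgals1, 1.94 to 2.35 for Anxa2 and 0.62 to 0.83 for Vim. The within-mouse log2 differences of ratios ranged from 1.23 to 1.90 (Lgals1 over Vim), 1.33 to 1.70 (Anxa2 over Vim) and -0.18 to 0.38 (Lgals1 over Anxa2). Of 279 list genes, 21 were listed as higher and 6 as lower, beside 0.86% and 0.484% of all tested genes. The 21 include Lgals1, Anxa2 and Vim, which were chosen from the higher rows, so these counts are a description. At the authors' adjusted p under 0.01 they were 18 and 3. Where the deposited log2 fold change was 1 or more in size they were 14 and 0, by stricter limits on the same rows. The deposited values of the 6 lower genes are smaller in size than their log2 ratios of group means. Those ratios were -1.24 (Serpine2), -1.27 (Cdh1), -1.18 (Cldn1), -0.95 (Itga5), -0.81 (Bmp2) and -0.73 (Ocln). No paired analysis was possible because mouse numbers are not shared between groups. Depth is known only over the listed rows.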
